A study of Mus musculus with 12 samples.

Results

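*Tnf* and 9 genes of the NF-kB pathway that the pathway itself switches on were examined in mouse lung cancer allograft tumors with and without knockdown of *Filip1l*. The genes were chosen by name, as *Tnf* with NF-kB subunit and response genes: *Nfkb1*, *Nfkb2*, *Relb*, *Nfkbia*, *Nfkbiz*, *Tnfaip3*, *Birc3*, *Bcl3* and *Icam1*. All 10 were found among the 15687 genes of the table, and none was removed by a filter. NF-kB is a family of dimeric transcription factors that inhibitor proteins hold in the cytoplasm until a signal such as tumor necrosis factor (TNF) activates a kinase complex (IKK), which marks the inhibitor for destruction. The freed dimers enter the nucleus and transcribe inflammatory genes together with their own inhibitors and subunits, so that the response limits and reshapes itself. In tumors the pathway is used by cancer cells and by the immune, endothelial and stromal cells of the host.

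RNA sequencing in this study asked which pathways change when *Filip1l*, a candidate tumor suppressor, is knocked down in lung tumors. The tumors grew from mTc11 cells, which are a line of mouse lung cancer. The cells had been injected under the skin in Matrigel into 8-week-old male C57BL6/J mice, and the tumors were collected 24 days later. There were 6 CTL tumors, whose cells carried a control short hairpin RNA, and 6 *Filip1l*-knockdown tumors, whose cells carried one against *Filip1l*. All cells were transduced with lentivirus, and the sources used here do not say which of the *Filip1l* hairpins the sequenced tumors carried. The paper describes puromycin selection of the transduced cells. Knockdown and other differences between the transduced cells of the groups cannot be told apart here. The p-values below compare tumors and do not separate these. Whole frozen tumors were sequenced, so host cells were included. Values are normalized counts, that is, reads per gene divided by a size factor of the tumor. The reads on the listed genes, as recovered from these values, numbered 17834745 to 32419578 per tumor.

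In the CTL group *Filip1l* itself had 1983 to 2542 normalized counts (median 2354), and in the knockdown group it had 1670 to 2184 (median 1935). The ranges overlapped, and *Filip1l* differed by -0.26 on the log2 scale (SE, the standard error, 0.07, limma adjusted p = 0.00998). Of the 15687 genes, 41.9% passed an adjusted p of 0.05, with 21.1% higher and 20.7% lower in the knockdown group, and in 21.5% the values of the groups did not overlap. The median log2 fold change was 0.0078. Whole chromosomes differed as well. The median log2 fold change was -0.35 on chromosome 19, -0.19 on chromosome 8 and 0.39 on chromosome 14, while the medians of the other chromosomes lay between -0.04 and 0.05. CTL replicate 5 had the fewest recovered reads, and *Filip1l*-knockdown replicate 1 lay farthest from the other tumors of its group.

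Of the 10 genes, 8 passed an adjusted p of 0.05, against 41.9% of all genes. These were *Tnf*, *Icam1*, *Birc3*, *Nfkbiz*, *Nfkbia*, *Relb* and *Nfkb1*, which rose, and *Nfkb2*, which fell. The 7 that rose compare with 21.1% of all genes. The groups did not overlap for 6 of the 10 (*Tnf*, *Icam1*, *Birc3*, *Nfkbiz*, *Relb* and *Nfkb2*), against 21.5% of all genes. Only *Tnf* also passed a log2 fold change of 1, so that 1 of 10 met both thresholds in the upward direction, against 6.20% of all genes. The median log2 fold change of the 10 genes was 0.34, beside 0.0078 over all genes. The 10 genes were chosen with earlier results of these data known, so their shares are descriptions and not a test.

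**Figure D1:**
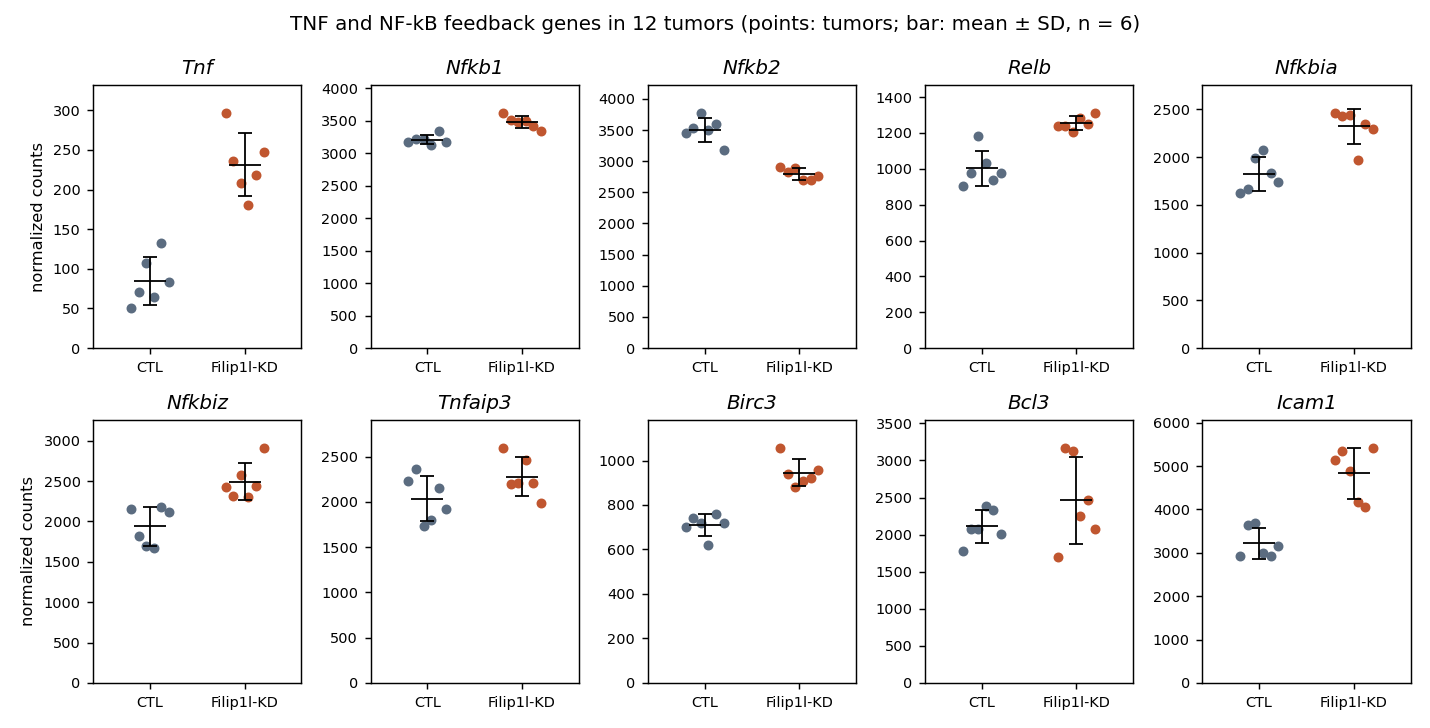
Normalized counts of the 10 genes in each tumor, with the groups on the horizontal axis and a scale from 0 for each gene. Points are tumors and bars are the mean ± SD (n = 6 per group). *Tnf* lies between 51.0 and 132.9 for CTL and between 180.2 and 296.5 after knockdown, and *Nfkb2* is the gene whose knockdown points all lie below the CTL points.

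Promoters of NF-kB target genes often carry κB sites, the short DNA sequences that NF-kB dimers bind, and some windows are shown here because NF-kB is known to act on its own regulators through such sites. RefSeq promoter windows of 300 bases around the annotated start (build GRCm38.p6) were matched to 7 of the 10 genes by symbol. Both strands were searched for the κB consensus of 10 bases, GGGRNNYYCC, where R is A or G, Y is C or T, and N is any base. A match was present in 4 of these 7 genes (*Nfkbia*, *Nfkb2*, *Tnfaip3* and *Bcl3*), or in 6 of their 10 windows. Among the *Nfkb2* windows, chr19:46305445-46305744 and chr19:46305680-46305979 overlap. GGGACTTTCC at position 11 of the former and -225 of the latter is the same site, counted in both. Over all genes, 8.46% of 32851 windows held a match, and 10.5% of the windows of genes in the expression table. These shares count windows and not genes. Capitals mark the matched bases, each sequence runs 5′ to 3′ along the gene, and a match describes letters, not binding. The *Nfkbia* window (chr12:55492598-55492897, - strand) held GGAAATTCCC at position -29 from the start site. The first of 3 *Nfkb2* windows (chr19:46304487-46304786, + strand) held the overlapping GGGAATTCCC at -39 and GGAATTCCCC at -38, and GGGGCTTTCC at -11. The upstream window of *Tnfaip3* (chr10:19015361-19015660, - strand) held GGGACACCCC at -125 and GGAAATCCCC at -12, and that of *Bcl3* held GGGAAGTCCC at position 3. The window of *Tnf* (chr17:35201958-35202257, - strand) is shown because *Tnf* moved most. It held no match, and neither did those of *Icam1* and *Birc3*. Sequences that differ from the consensus, such as TGGAAATTCC in the *Icam1* window, were not counted, so a window without a match may still hold a κB site. Sites farther upstream than these windows were not searched.
*Nfkbia*: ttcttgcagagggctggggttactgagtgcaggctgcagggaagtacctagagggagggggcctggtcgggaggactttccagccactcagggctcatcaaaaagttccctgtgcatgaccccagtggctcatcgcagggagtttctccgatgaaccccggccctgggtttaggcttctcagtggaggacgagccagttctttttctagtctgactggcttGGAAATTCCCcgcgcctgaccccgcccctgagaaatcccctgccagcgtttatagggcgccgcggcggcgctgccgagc
*Nfkb2*: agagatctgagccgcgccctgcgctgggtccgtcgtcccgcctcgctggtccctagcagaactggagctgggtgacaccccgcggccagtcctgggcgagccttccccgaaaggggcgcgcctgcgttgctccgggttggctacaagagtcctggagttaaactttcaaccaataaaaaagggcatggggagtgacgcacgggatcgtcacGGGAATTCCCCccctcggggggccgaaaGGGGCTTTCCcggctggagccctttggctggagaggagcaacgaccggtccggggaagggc
*Tnfaip3*: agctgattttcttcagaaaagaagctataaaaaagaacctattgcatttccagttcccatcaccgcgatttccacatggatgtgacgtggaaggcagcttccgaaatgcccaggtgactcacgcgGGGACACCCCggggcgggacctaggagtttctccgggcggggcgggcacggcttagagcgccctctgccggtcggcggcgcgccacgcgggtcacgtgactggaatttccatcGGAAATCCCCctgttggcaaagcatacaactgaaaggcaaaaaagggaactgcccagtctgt
*Tnf*: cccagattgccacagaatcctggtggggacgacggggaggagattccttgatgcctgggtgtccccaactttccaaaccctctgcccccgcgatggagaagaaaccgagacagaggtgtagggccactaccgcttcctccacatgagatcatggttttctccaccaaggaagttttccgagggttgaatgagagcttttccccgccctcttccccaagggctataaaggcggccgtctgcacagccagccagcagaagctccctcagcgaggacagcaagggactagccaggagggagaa

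*Tnf*, the ligand that starts the signal and is itself an NF-kB target in macrophages and other immune cells, showed the highest change of the 10 genes. It lies on chromosome 17 (chr17:35199381-35202007, build GRCm38). CTL tumors ranged from 51.0 to 132.9 normalized counts (median 77.4), and knockdown tumors from 180.2 to 296.5 (median 227.5). Every knockdown tumor was above every CTL tumor. The mean rose from 85.2 ± 30.3 to 231 ± 39.5 (SD, n = 6 each). This is 1.48 on the log2 scale (SE 0.21, 95% interval 1.04 to 1.93, limma adjusted p = 6.29e-05), or 2.80-fold on the scale of the normalized count plus 1. With p = 0.00216, the two-sided exact permutation test reached the smallest value that 6 against 6 tumors allow. Every gene whose groups do not overlap reaches this value, so here and below it restates the lack of overlap. The permutation p is not adjusted over genes. In whole tumors, more cells that express *Tnf* and more *Tnf* RNA per cell cannot be told apart, and this holds for each gene below.

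The subunits did not move in one direction. *Relb* (chr7:19606217-19629438) encodes the partner through which the noncanonical pathway acts. CTL tumors held 905 to 1185 normalized counts of it (median 977), knockdown tumors 1203 to 1310.2 (median 1243), with no overlap. *Relb* rose by 0.33 on the log2 scale (SE 0.06, limma adjusted p = 0.000931, exact permutation p = 0.00216). *Nfkb1* (chr3:135584655-135691547) encodes p105, the precursor of the DNA-binding subunit p50 and an inhibitor in its unprocessed form. Its normalized counts ran from 3126 to 3345 without knockdown (median 3199) and from 3344 to 3617 with it (median 3489), so that the ranges met at a single tumor of each group. The rise of *Nfkb1* was the smallest of the genes that passed, 0.12 on the log2 scale (SE 0.04, limma adjusted p = 0.0305, exact permutation p = 0.00433). It depended on the scale and on single tumors. With all tumors scaled to the same total the log2 fold change of *Nfkb1* was 0.074 (limma adjusted p = 0.236), and the adjusted p ranged from 0.0303 to 0.0609 when each tumor was left out in turn. The call was lost without CTL replicates 1, 4 or 6, and likewise without *Filip1l*-knockdown replicates 1, 2 or 3.

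*Nfkb2* (chr19:46304320-46312385) was the only one of the 10 genes to fall. It encodes p100, which holds RelB inactive until it is processed to p52. CTL tumors ranged from 3172 to 3771 normalized counts (median 3517) and knockdown tumors from 2694 to 2907 (median 2792), with every knockdown tumor below every CTL tumor. *Nfkb2* fell by 0.32 on the log2 scale (SE 0.05, limma adjusted p = 0.00011, exact permutation p = 0.00216). *Nfkb2* lies on chromosome 19, however, where the median log2 fold change of 458 genes was -0.35. In each tumor the chromosome 19 median, taken relative to the CTL mean, lay between -0.022 and 0.019 in the CTL group and between -0.38 and -0.33 in the knockdown group. Of these 458 genes, 63.3% fell, and 53.7% had a lower log2 fold change than *Nfkb2*. With the chromosome median removed from each tumor, the log2 fold change of *Nfkb2* was 0.034 (limma adjusted p = 0.575). Annotated exons of *Psd*, on the opposite strand, share 299 bases with *Nfkb2* (6.52% of its exon bases), and a second annotated gene on that strand shares 531 bases (11.6%). *Icam1* shares 511 bases (11.7%) with opposite-strand exons of *Gm47079*, and *Bcl3* shares 161 bases (6.51%) with those of *Gm16175*. Without strand information, reads from such bases cannot be assigned, and the values of these 3 genes are uncertain to that extent.

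*Rela*, which encodes the main activating subunit p65, lies on the same chromosome and had a similar course. It fell from 4467 ± 205 to 3245 ± 201 normalized counts (SD, n = 6 each), by 0.46 on the log2 scale (limma adjusted p = 9.95e-06), and with the chromosome median removed it was at -0.10 (limma adjusted p = 0.12). *Rel*, the c-Rel subunit of lymphocytes and myeloid cells, was at 317 ± 42.9 normalized counts without and 339 ± 42.0 with knockdown, a log2 fold change of 0.10 (limma adjusted p = 0.485). The removal of chromosome medians changed the other members of the 10 little. *Tnf* was then at 1.45, *Icam1* at 0.59, *Birc3* at 0.42, *Nfkbiz* at 0.36, *Nfkbia* at 0.36 and *Relb* at 0.33, all 6 past an adjusted p of 0.05, while *Nfkb1* was at 0.088 (limma adjusted p = 0.1).

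**Figure D2:**
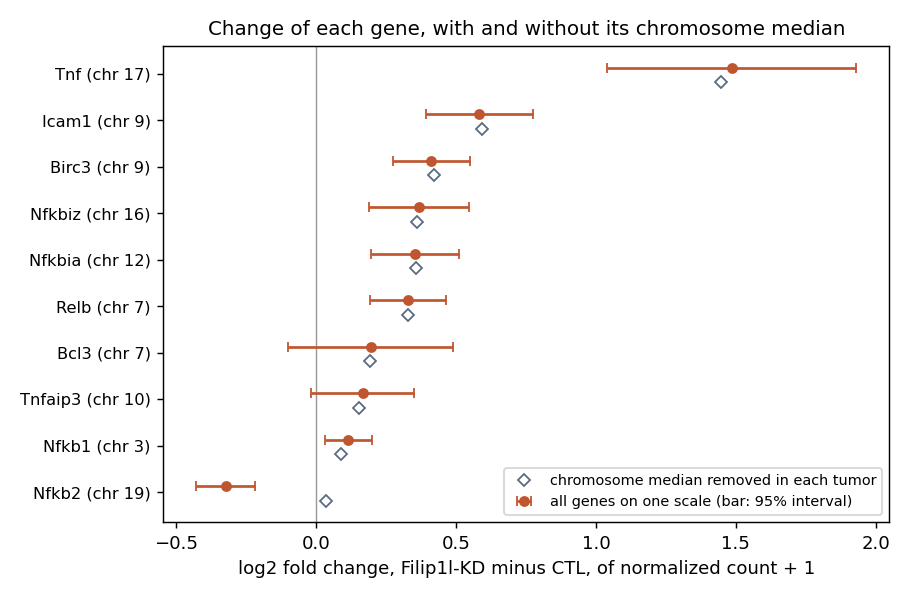
Log2 fold change (*Filip1l*-knockdown minus CTL, of the normalized count plus 1) of each gene, with its chromosome on the vertical axis. Filled points are the fit on the deposited scale with its 95% interval, and open diamonds the value after the chromosome median was removed from each tumor. *Nfkb2* moves from -0.32 to 0.034, and the other 9 genes stay near their first value.

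*Nfkbia* and *Nfkbiz* rose, while *Tnfaip3* and *Bcl3* did not pass the test. *Nfkbia* (chr12:55489410-55492647) encodes IκBα, the inhibitor that NF-kB resynthesizes first. Its normalized counts ran from 1625 to 2075 in the CTL group (median 1787) and from 1975 to 2461 in the knockdown group (median 2390.1). *Filip1l*-knockdown replicate 4 lay within the CTL range, and the other 5 lay above it. *Nfkbia* rose by 0.35 (SE 0.07, limma adjusted p = 0.00153, exact permutation p = 0.00649). When trends with gene length and GC content were removed, its log2 fold change was 0.15 (limma adjusted p = 0.0317).

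*Nfkbiz* (chr16:55811375-55838899) encodes IκBζ, a nuclear IκB protein that works as a coactivator of secondary response genes. CTL tumors had 1676 to 2178 normalized counts (median 1968), and all knockdown tumors had more, 2299 to 2912 (median 2436). The groups did not overlap, and *Nfkbiz* rose by 0.37 (SE 0.08, limma adjusted p = 0.00283, exact permutation p = 0.00216). *Bcl3* (chr7:19808462-19822770), another nuclear IκB protein that binds p50 and p52, was the gene with the widest spread, relative to its mean, in the knockdown group. CTL tumors lay between 1780.0 and 2391 normalized counts (median 2074), knockdown tumors between 1693 and 3170.2 (median 2355). *Filip1l*-knockdown replicates 2 and 3 were the highest of all 12 tumors and replicate 1 the lowest. The log2 fold change of *Bcl3* was 0.19 (95% interval -0.10 to 0.49, limma adjusted p = 0.281, exact permutation p = 0.249), and without *Filip1l*-knockdown replicate 1 it was 0.30 (limma adjusted p = 0.0512). Without replicate 2 or replicate 3 the value of *Bcl3* was lower, at 0.11 (limma adjusted p = 0.526) and 0.12 (limma adjusted p = 0.517).

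*Tnfaip3* (chr10:19000910-19015657) encodes A20, a ubiquitin-editing enzyme that shuts off signaling from the TNF receptor. The CTL group covered 1737 to 2363 normalized counts (median 2041) and the knockdown group 1992 to 2598 (median 2207). Only 2 of 6 knockdown tumors exceeded the highest CTL tumor. The log2 fold change of *Tnfaip3* was 0.17 (95% interval -0.018 to 0.35, limma adjusted p = 0.138, exact permutation p = 0.0974), so that a change of 0 and a change as large as that of *Relb* both lay in its interval. *Birc3* (chr9:7848699-7873186) encodes cIAP2, a ubiquitin ligase of the TNF receptor complex that protects cells from TNF-induced death. CTL tumors ranged from 620.0 to 759 normalized counts (median 719) and knockdown tumors from 879.5 to 1057 (median 932), without overlap. The rise was 0.41 (SE 0.06, limma adjusted p = 0.000159, exact permutation p = 0.00216).

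*Icam1* (chr9:21015985-21028817) encodes an adhesion molecule on which leukocytes cross the vessel wall, and which NF-kB induces in endothelial, epithelial and immune cells. Normalized counts ranged from 2923 to 3690.1 in the CTL group (median 3075) and from 4061 to 5420.0 in the knockdown group (median 5004). No knockdown tumor came within the CTL range. *Icam1* rose by 0.58 on the log2 scale (SE 0.09, limma adjusted p = 0.000136, exact permutation p = 0.00216), the second highest change of the 10 genes.

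Levels of different genes were compared per kb of annotated exon. In CTL tumors *Nfkbia* was highest, at 1131 ± 112 normalized counts per kb (SD, n = 6), and its lowest tumor (1009) was above the highest *Bcl3* tumor (966). *Bcl3* (853 ± 90.5 per kb), *Nfkb2* (764 ± 42.8) and *Icam1* (739 ± 81.0) followed, with overlapping ranges. *Nfkbiz* (387 ± 47.3 per kb) stood below these and above *Tnfaip3* (282 ± 34.7), *Nfkb1* (266 ± 6.27) and *Relb* (258 ± 25.5), which overlapped one another. *Birc3* (142 ± 9.66 per kb) and *Tnf* (52.0 ± 18.5) were lowest, each apart from its neighbors. In *Filip1l*-knockdown tumors *Tnf* was still the lowest by mean, at 141 ± 24.1 normalized counts per kb, but its highest tumor (181) exceeded the lowest *Birc3* tumor (176). *Icam1* stood second there by mean, at 1108 ± 135 per kb, with a range that overlapped those of *Nfkbia* and *Bcl3*. With the length of the longest transcript in place of all exon bases, *Icam1* had the highest mean in CTL tumors (1271 ± 139 per kb). Its range overlapped those of *Nfkbia* and *Bcl3*. *Nfkb1* was at 774 ± 18.2 per kb with this length, so these positions depend on the transcript used.

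**Figure D3:**
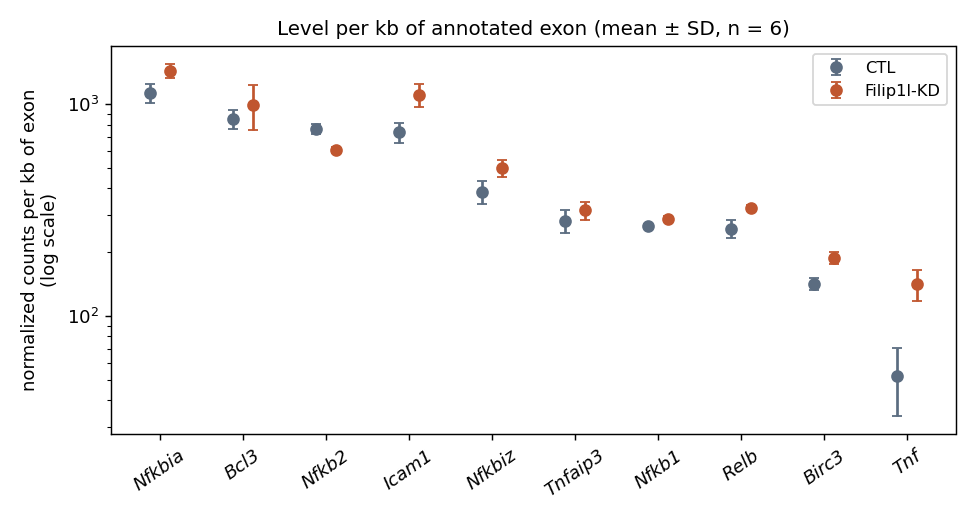
Level of the 10 genes per kb of annotated exon in CTL and *Filip1l*-knockdown tumors, on a log scale. Points are means and bars the SD (n = 6 per group). Levels run from 1131 per kb for *Nfkbia* to 52.0 for *Tnf* in CTL tumors, and *Tnf* shows the widest gap between the groups.

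Single tumors set the extremes of several genes. *Filip1l*-knockdown replicate 1 was highest in its group for 6 of the 10 genes (*Tnf*, *Nfkb1*, *Nfkb2*, *Nfkbia*, *Tnfaip3* and *Birc3*) and lowest for *Bcl3*. It was also the tumor with the highest summed level of macrophage and monocyte markers, 73849.5 normalized counts, where the other 11 tumors had 30927.5 to 44288.4. Sums of markers, here and below, weigh abundant genes most, and *Lyz2* alone reached up to 40989.8 in the knockdown group. Without *Filip1l*-knockdown replicate 1 *Tnf* was at 1.41 (limma adjusted p = 0.000115). In the CTL group, replicate 5, the tumor with the fewest recovered reads, was highest for 4 genes (*Tnf*, *Nfkb1*, *Nfkbiz* and *Birc3*), and replicate 1 was lowest for 5 (*Tnf*, *Relb*, *Nfkbia*, *Bcl3* and *Icam1*). Without CTL replicate 5 *Tnf* was at 1.63 (limma adjusted p = 2.24e-05).

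Markers of the host cells that could supply these transcripts were read in the same tumors. The neutrophil list was higher in the same group as *Tnf*. Of its 7 listed genes, 6 rose, beside 21.1% of all genes. The sum of the 7 ran from 312 to 383 normalized counts for CTL and from 767 to 1255.5 after knockdown, without overlap. *Ngp*, a granule gene of immature neutrophils, was at 0 in 1 CTL and 2 *Filip1l*-knockdown tumors, and the granule genes *Camp*, *Elane* and *Mpo* were not analysed here. The macrophage and monocyte list, a main source of *Tnf* in tissue, had 2 of 13 genes that rose (*Cd14* and *Cd68*), beside 21.1% of all genes. Its sums of 33606.5 to 44288.4 and 30927.5 to 73849.5 normalized counts overlapped. Of the 8 T cell and 7 dendritic cell markers, 0 passed with limma, edgeR or DESeq2, where 41.9% of all genes passed with limma. Of these markers, 0 had an unadjusted limma p under 0.05. Their sums overlapped, at 877 to 2269 and 965 to 1946 normalized counts for T cells and 1282 to 1968 and 1288 to 3142 for dendritic cells. The part of these cells in the change of *Tnf* was not tested.

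Other lists were read in the same way. Of all genes, 21.1% rose and 20.7% fell, and in 21.5% the groups did not overlap. Of 8 endothelial markers 7 rose, with sums of 3083 to 3899 normalized counts for CTL and 3938 to 6242 after knockdown, which did not overlap. Of 6 epithelial markers 5 rose, with sums from 149310 to 196100 and from 215093 to 394086. Of 8 skeletal muscle markers 7 rose, with overlapping sums of 2326 to 12328 and 5182 to 88658.5, and of 8 fibroblast markers 3 fell, with sums of 161690 to 264544 and 75744 to 254618. The single B cell marker in the table, *Cd79b*, rose, with 11.4 to 29.9 normalized counts for CTL and 27.4 to 62.9 after knockdown. Of 6 lung epithelial markers 2 rose and 1 fell, so that 50% passed, beside 41.9% of all genes. Their sums of 1115.5 to 2849 and 1888 to 3669 overlapped. *Sftpc*, the defining surfactant gene of alveolar type II cells, was at 0 in 3 CTL and 1 *Filip1l*-knockdown tumors. The part of each list in the changes of the 10 genes was not tested.

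Within the groups, *Tnf* was set against the mean log2 level of each of the 10 marker lists after the group means were removed (n = 12). The highest correlation was with T cell markers, at Pearson's r = 0.67 (permutation p = 0.0205, 0.129 after Benjamini-Hochberg adjustment over 10 lists) and Spearman's rho = 0.70 (permutation p = 0.0111, adjusted 0.069), and r was 0.58 without the 2 tumors farthest from the median. For neutrophil markers r was 0.46 (permutation p = 0.0287, adjusted 0.129) and rho 0.30 (permutation p = 0.305, adjusted 0.486), and without the 2 farthest tumors r was 0.23. For dendritic cell markers r was 0.44 (permutation p = 0.0386, adjusted 0.129) and rho 0.64 (permutation p = 0.0138, adjusted 0.069), and r was 0.21 without the 2 farthest tumors. For macrophage and monocyte markers r was 0.26 (permutation p = 0.276, adjusted 0.533) and rho 0.22 (permutation p = 0.467, adjusted 0.486), with r at 0.075 without the 2 farthest tumors. After adjustment 0 of the 10 lists passed 0.05, where 3 had an unadjusted p below it.

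**Figure D4:**
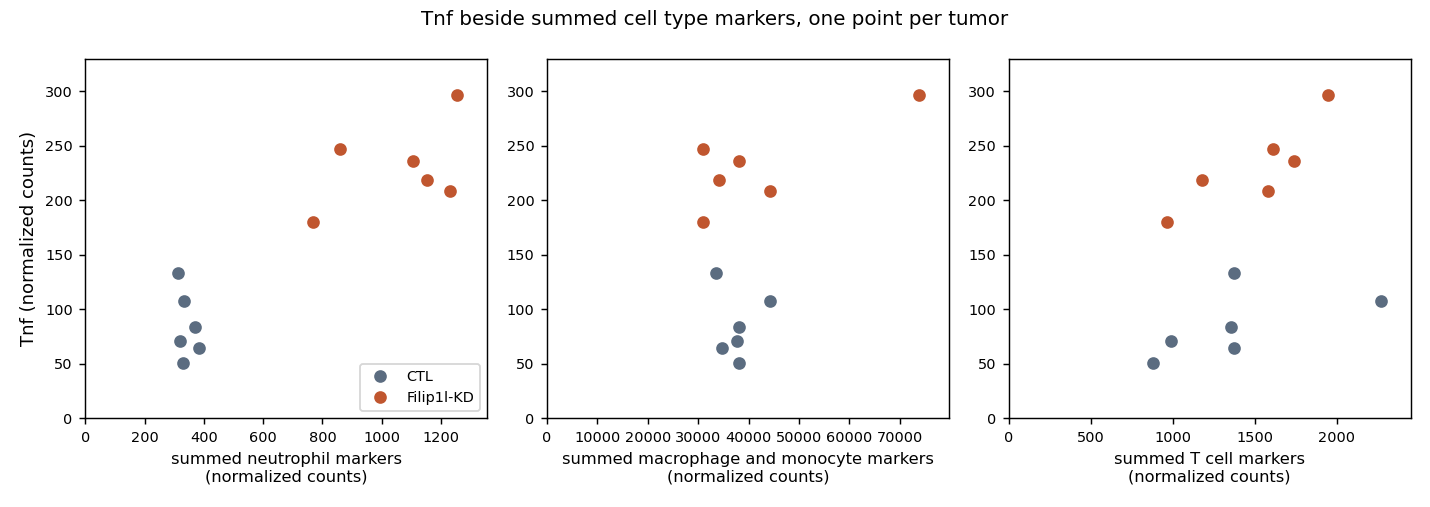
*Tnf* (vertical axis, normalized counts) beside the summed normalized counts of neutrophil, macrophage and monocyte, and T cell markers (horizontal axes), with 1 point per tumor. The groups separate on both axes for neutrophil markers, and on the *Tnf* axis alone for the other 2 lists.

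The genes whose course over the 12 tumors was most like that of *Tnf*, once the group means were removed, were *Trbc1* (Pearson's r = 0.89), *Ass1* (0.87), *Adamdec1* (0.85), *Rbpms* (0.84) and *Mab21l3* (0.84). They are the highest of 12887 genes whose mean reached 50 normalized counts, and the points share library and tumor composition, so the values are descriptions. *Trbc1* encodes a constant region of the T cell receptor beta chain, and *Ass1* the argininosuccinate synthase that supplies arginine. Of these 5, only *Mab21l3* also passed the group comparison, with a log2 fold change of 2.49 (limma adjusted p = 4.87e-06).

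Around *Tnf*, 11 of 24 TNF superfamily ligands and receptors passed an adjusted p of 0.05, with 8 higher and 3 lower (median log2 fold change 0.26), a share of 45.8% beside 41.9% of all genes. Both TNF receptors were among those that rose. *Tnfrsf1a*, the receptor found on most cells, went from 4878 ± 421 to 6256 ± 573 normalized counts (SD, n = 6 each), by 0.36 (limma adjusted p = 0.00108), and *Tnfrsf1b*, the receptor of leukocytes and endothelium, by 0.25 (limma adjusted p = 0.00871). *Tnfsf15*, at means of 6.33 and 18.5 normalized counts, had a log2 fold change of 1.47, which was 0.85 with a pseudocount of 8. Also higher were *Cd40* (1.23), a receptor of antigen-presenting cells, *Tnfsf13* (1.04) and *Tnfsf13b* (0.87), which encode the B cell factors APRIL and BAFF. *Tnfrsf11b*, the decoy receptor osteoprotegerin, was at -0.94, *Tnfrsf21* at -0.59 and *Tnfsf12*, the ligand TWEAK, at -0.56.

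The steps from receptor to IKK gave 14 of 33 genes past an adjusted p of 0.05, with 11 higher and 3 lower (median 0.096), a share of 42.4% beside 41.9% of all genes. *Ikbke*, an IKK-related kinase gene that NF-kB induces, rose by 0.83 (limma adjusted p = 1.31e-06), followed by *Rnf31* (0.44), *Malt1* (0.43) and *Casp8* (0.41). *Rnf31* lies on chromosome 14 and was at 0.064 (limma adjusted p = 0.5) with the chromosome median removed. *Ikbkg*, which encodes the IKK subunit NEMO, and *Irak3* fell by 0.41 each, and *Cflar*, the caspase-8 inhibitor c-FLIP, fell by 0.24 (limma adjusted p = 0.0294), a call that was lost in 6 of 24 alternatives.

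Among 21 other Rel subunits and inhibitors 8 passed, with 6 higher and 2 lower (median 0.057), 38.1% beside 41.9% of all genes. *Tnip3*, an A20-binding protein, rose by 0.96 (limma adjusted p = 3.02e-05), *Nfkbid*, the nuclear IκB protein IκBNS, by 0.88 (limma adjusted p = 0.00384), *Zc3h12a*, an RNase that degrades cytokine messages, by 0.88 (limma adjusted p = 6.33e-06), and *Nfkbib*, or IκBβ, by 0.33 (limma adjusted p = 0.026, lost in 7 of 24 alternatives). The lower ones were *Rela* and *Usp21*, a deubiquitinase, which fell by 0.24 (limma adjusted p = 0.00225).

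The other response genes gave 22 of 39 past an adjusted p of 0.05, with 17 higher and 5 lower (median 0.29), 56.4% beside 41.9% of all genes. *Nos2*, the inducible nitric oxide synthase, rose by 2.78 (limma adjusted p = 6.43e-07), *Cxcl5*, a neutrophil chemokine, by 2.41 (limma adjusted p = 9.31e-09), *Il1a* by 1.64, and *Lcn2*, an iron-binding protein of neutrophils and epithelium, by 1.56 (limma adjusted p = 6.7e-05). Other targets went down. *Csf3*, the granulocyte growth factor, had means of 21.3 ± 10.1 and 7.27 ± 4.67 normalized counts (SD, limma adjusted p = 0.00904), *Ptgs2*, or cyclooxygenase-2, fell by 1.03 (limma adjusted p = 0.0155), *Bcl2l1*, or Bcl-xL, by 0.42 (limma adjusted p = 3.86e-05) and *Csf1* by 0.34 (limma adjusted p = 0.0492, lost in 13 of 24 alternatives).

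**Figure D5:**
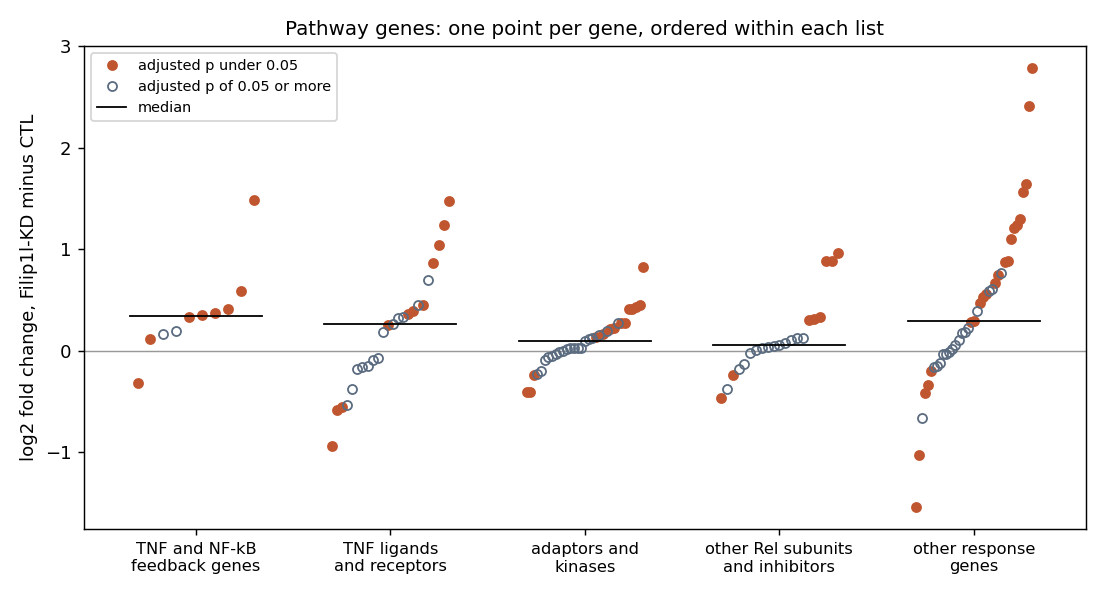
Log2 fold change (*Filip1l*-knockdown minus CTL) of each of the 10 genes and of each gene in 4 lists of the pathway, ordered within each list. Filled points passed an adjusted p of 0.05, open points did not, and bars mark the medians. The response genes reach from -1.55 to 2.78, and the medians are 0.34, 0.26, 0.096, 0.057 and 0.29 from left to right.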

How the data were processed

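RNA from 12 tumors (6 CTL, 6 *Filip1l*-knockdown) was sequenced by the authors with a NEBNext Ultra II RNA kit. Per the labels, reads were processed with bcl2fastq 2.20, Trimmomatic 0.36, STAR 2.5.2b on build mm10, and featureCounts of Subread 1.5.2. The authors divided the counts by DESeq2 size factors and deposited this normalized signal. Whether counting used strand is not given in the sources used here. Groups came from the labels, and 0 columns were left out.

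All values in each of the 12 columns were whole multiples of a step (tolerance 1e-06 reads), that is 100% came out whole, so the reads could be recovered. In 3 tumors the step lies within 1% of 1, where the recovery cannot be checked as firmly.

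Values were tested as log2 of the normalized count plus 1 with limma 3.58.1 (mean-variance trend, R 4.3.3) and Benjamini-Hochberg adjustment over 15687 genes. A minimum mean of 5 removed 0 genes. Calls used an adjusted p of 0.05, and for the stricter count also an absolute log2 fold change above 1, the study's thresholds. Single genes were also tested by exact permutation of the group labels (two-sided), and correlations by 100000 permutations within groups. Positions and exon lengths came from GENCODE vM21 (GRCm38), where 15661 genes were found. Chromosome medians used genes with a mean of at least 50. The steps were tested on simulated data.

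The 10 genes and all lists were chosen with earlier results of these data known. Named are the 10 genes, *Filip1l*, up to 4 highest and 4 lowest genes past an adjusted p of 0.05 in each of 4 pathway lists, *Rel*, *Rela*, both TNF receptors, the 5 genes most like *Tnf*, and markers. The alternatives were other pseudocounts (0.5 and 8), filters, scalings, limma without trend, a replicate block, removal of chromosome medians or of length and GC trends, each tumor left out, another gene length, and, added after seeing the data, edgeR 4.0.16 and DESeq2 1.42.0 on the recovered reads.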

Additional observations from a re-analysis of the deposited data

Results flagged for a closer look

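*Nfkbia* in *Filip1l*-knockdown replicate 4 stood apart from its group, at 1975 normalized counts where the nearest of the other 5 knockdown tumors had 2290.3. It was the single flag among 20 sets of 6 tumors (10 genes in 2 groups), and chance gives about 1 such flag in 20. Without this tumor the log2 fold change of *Nfkbia* was 0.40 (limma adjusted p = 0.000457), beside 0.35 with all 12.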

How the results depend on the processing

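Over 24 alternatives, *Tnf*, *Icam1*, *Birc3*, *Nfkbiz*, *Nfkbia* and *Relb* stayed higher and past an adjusted p of 0.05, and *Bcl3* and *Tnfaip3* stayed above 0 and short of it. *Nfkb2* reversed with chromosome medians removed, from -0.32 to 0.034, and *Nfkb1* lost its call in 9 alternatives. *Tnf* ranged from 1.35 to 1.63 when each tumor was left out and from 1.28 to 1.49 under the other alternatives. Of the 10 genes, 7 or 8 passed the adjusted p when each tumor was left out, 6 with chromosome medians removed, and 8 with both edgeR (1635 genes called, 6626 past the adjusted p) and DESeq2 (1652 and 6960) on recovered reads, against 1596 and 6566 with limma. Counts of lower genes in the pathway lists were less firm. With length and GC trends removed, 6 TNF ligands and receptors were lower in place of 3. When each tumor was left out, the lower genes numbered 2 to 5 for adaptors and kinases, 2 to 4 for other Rel subunits and inhibitors, and 3 to 6 for other response genes. The higher genes among the other response genes then numbered 13 to 16, in place of 17, and 14 with a replicate block. The causes were not tested. Of 31 named pathway genes, 26 stayed on their side of the threshold in every alternative that tested them, and *Csf1*, *Nfkbib*, *Cflar*, *Rela* and *Rnf31* lost it in at least 1 alternative.

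Tumors that share a replicate number were not more alike than others (correlations of -0.27 to 0.10, with 0 of 6 correlating best with its own number). No pairing by number was seen, though such a check of 6 pairs cannot exclude it. With a replicate block, 7 of the 10 genes and 5905 of all genes passed the adjusted p, and 1554 were called.

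*Tnf* is the least abundant of the 10 genes, at 51.0 normalized counts in its lowest tumor, and whole tumors do not separate cell number from RNA per cell.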
